A study of Arabidopsis thaliana with 6 samples.

Results

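Glucosinolates are sulfur-rich defence compounds of Arabidopsis thaliana and its relatives, and 43 genes of their synthesis, regulation, transport and breakdown were followed in seedlings of the mutant csu6-2 and of the wild-type accession Col-0. The genes were taken by locus identifier from the roles they are known for, by a rule that uses none of their values, though with earlier results of these data known. Of these genes, 26 act in the aliphatic branch, 10 in the indolic branch and 7 in steps that serve both. They stand among 32678 genes with a value. Of the 43, AOP2 was not analysed here, and 40 passed the filter on low values (at least 1 RPKM in 3 or more libraries): 24 aliphatic, 9 indolic and 7 shared.

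The csu6-2 seedlings carry a mutant allele of COP1 SUPPRESSOR 6, whose named role in the title of the study is repression of PIF4 and PIF5. They were kept in white light for 5 days, as were the Col-0 seedlings, and 3 libraries of each genotype were made from the polyadenylated RNA of whole seedlings. No other allele or agent is named for either genotype, and no source used here says whether the libraries of a genotype came from separately grown seedlings, so p-values measure the spread between these libraries, which may be technical. Values are RPKM, reads per kilobase of gene relative to library size, so levels can be set side by side across genes. The libraries summed to 813352.1 to 836696.5 RPKM, their depth in reads is not given, and 12.9% of the 18885 tested genes were called (671 higher in csu6-2, 1771 lower). Of 6 marker genes of green shoot, 3 were higher and 0 lower in csu6-2, beside 3.55% higher over all tested genes, and all 6 changes were positive. The number called was 4 with median-of-ratios scaling of the libraries, and 4 without csu6-2 replicate 1 or Col-0 replicate 1. It was 1 without csu6-2 replicate 2 or 3, 2 without Col-0 replicate 3 and 0 without Col-0 replicate 2. These markers had a summed level of 24190.5 to 27186.9 RPKM in csu6-2 libraries and 17953.6 to 20933.9 RPKM in Col-0 libraries. Of 8 root markers, 6 could be tested and 1 was lower, with sums of 39.6 to 50 RPKM in csu6-2 and 43.0 to 51.9 RPKM in Col-0. The 4 seed markers summed to 0.5 to 2.87 RPKM in csu6-2 and 0.89 to 1.51 RPKM in Col-0, with CRU2 at 0 in all libraries. The part of the shoot and root shares of the tissue in the results was not tested.

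Aliphatic glucosinolates are built from methionine, whose side chain is first lengthened in the chloroplast, and indolic ones from tryptophan. In both branches a CYP79 enzyme turns the amino acid into an aldoxime, a CYP83 enzyme activates it, glutathione supplies the sulfur, and a glucosyl and a sulfate group complete the core. MYB28, MYB29 and MYB76 switch on the aliphatic genes and MYB34, MYB51 and MYB122 the indolic genes. The compounds are stored apart from myrosinases (TGG1 and TGG2 in the shoot), which split off glucose when tissue is damaged, releasing isothiocyanates or nitriles.

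The myrosinase gene TGG2 fell by 52.2% in csu6-2, the widest change among the 40 tested members. Among indolic genes, MYB34 fell by 21.0%, CYP79B2 fell by 23.5% and CYP83B1 fell by 21.1%. TGG1 fell by 15.9%, and FMO GS-OX1, the 1 aliphatic gene past the threshold, was 22.1% higher. These 6 calls (1 higher, 5 lower) are 15.0% of the tested members, beside 12.9% of all tested genes. The groups did not overlap for 12 members (30.0%; 4 higher, 8 lower), beside 32.0% of all tested genes (9.04% higher, 23.0% lower). Both shares stood near the background. The median log2 change of the members was -0.04, against -0.07 over all tested genes. With median-of-ratios scaling of the libraries, 8 of 39 tested members were called (20.5%; 4 higher, 4 lower), beside 11.5% of all tested genes, and their median was 0.04. A log2 change here is the csu6-2 mean of log2(RPKM + 1) less the Col-0 mean, and a call is an adjusted p below 0.05 in limma with Benjamini-Hochberg adjustment over all tested genes. In RNA of whole seedlings, fewer cells of a type and less RNA per cell cannot be told apart.

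**Figure D1:**
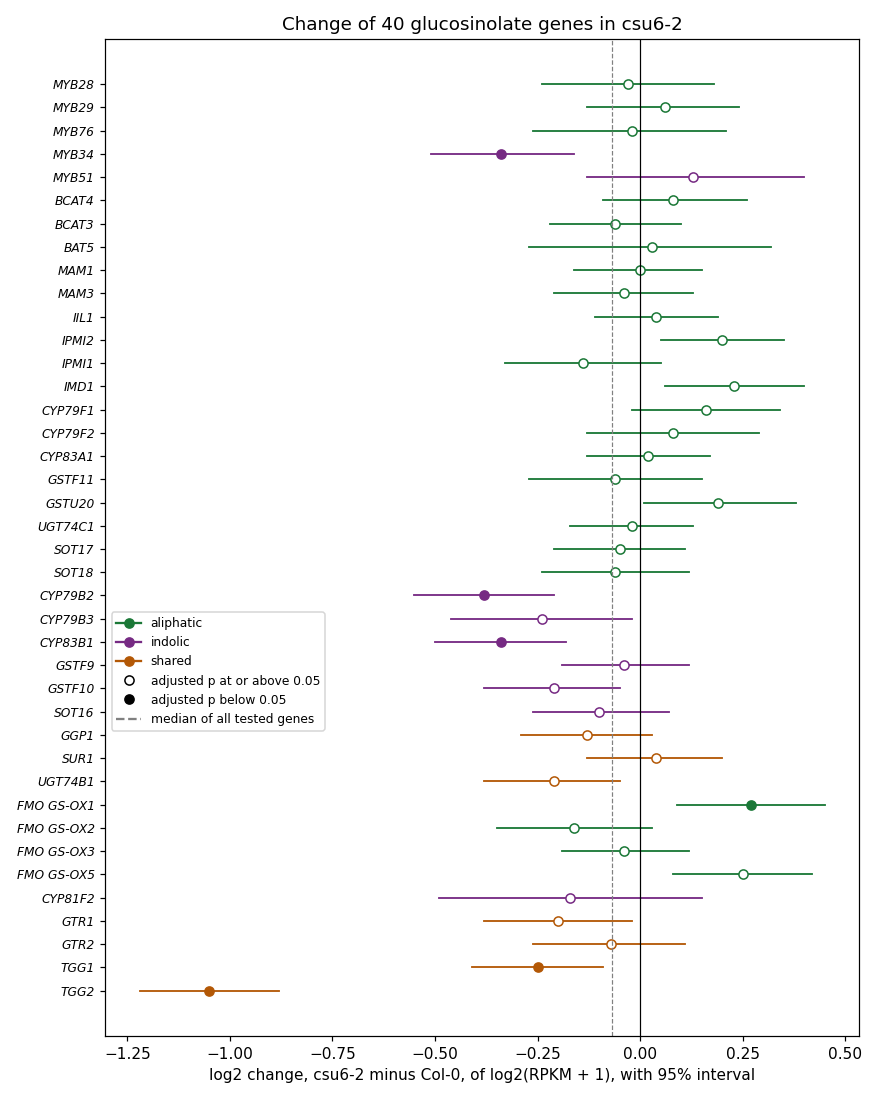
Change of the 40 tested members in csu6-2 relative to Col-0 (x axis, log2 change with 95% interval), coloured by branch; filled points passed the threshold and the dashed line is the median of all tested genes, -0.07. TGG2 at -1.05 stands apart, the filled indolic points lie between -0.38 and -0.34, and the aliphatic points gather around 0.

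TGG2 (AT5G25980) had 62.57, 62.20 and 71.49 RPKM in csu6-2 libraries, against 132.15, 131.58 and 146.76 RPKM in Col-0 libraries. Every mutant library lay below every wild-type library by a wide margin. The means were 65.4 ± 5.26 RPKM in csu6-2 and 137 ± 8.6 RPKM in Col-0 (SD, n = 3 each). The log2 change was -1.05 (SE 0.08, 95% interval -1.22 to -0.88, limma adjusted p = 5.66e-06). It stayed called in each of the 6 fits without a library (adjusted p at most 0.00039) and with median-of-ratios scaling (log2 change -0.98, adjusted p = 0.000173). TGG1 (AT5G26000), the more abundant of the pair, had 842.12, 823.80 and 862.05 RPKM in csu6-2, against 1036.38, 956.73 and 1014.32 RPKM in Col-0. These groups did not overlap either, but the gap was narrower. The log2 change of TGG1 was -0.25 (SE 0.07, adjusted p = 0.0402). That call was lost with median-of-ratios scaling (log2 change -0.17, adjusted p = 0.218) and without any one of the libraries: adjusted p was 0.0701, 0.127 and 0.0666 without csu6-2 replicates 1, 2 and 3, and 0.12, 0.0659 and 0.105 without Col-0 replicates 1, 2 and 3.

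Within each library, which removes the scaling, TGG2 stood at 0.0743, 0.0755 and 0.0829 of the TGG1 level in csu6-2, against 0.128, 0.138 and 0.145 in Col-0. The ratio averaged 0.0776 ± 0.00467 in csu6-2 and 0.137 ± 0.00863 in Col-0 (SD, n = 3 each), a log2 difference of -0.82. An exact two-sided permutation test of it gave p = 0.1 (adjusted p = 0.1 over the 3 ratios examined), the smallest that 3 against 3 libraries can give. The 3 ratios were chosen after their values were seen, so their p-values are no independent support. The ratio was lower in all csu6-2 libraries than in any Col-0 library. The pair lies on chromosome 5 in convergent orientation, TGG2 at chr5:9072708-9075777 on the plus strand and TGG1 at chr5:9079452-9082384 on the minus strand of TAIR10.1, with 3674 bases and 2 annotated genes between them. Of the exonic windows of 50 bases in TGG2, 6 of 1392 were identical in TGG1, so reads of that length would seldom match both genes.

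The 300 bases before the annotated start of each myrosinase gene are shown because the neighbours share sequence there and differ in the size of their change. They are read from RefSeq's TAIR10.1 assembly, 5′ to 3′ on the strand of the gene, from chr5:9072408-9072707 (plus strand) for TGG2 and chr5:9082385-9082684 (minus strand) for TGG1. Capitals mark the stretches of at least 12 bases that both windows hold.
TGG2: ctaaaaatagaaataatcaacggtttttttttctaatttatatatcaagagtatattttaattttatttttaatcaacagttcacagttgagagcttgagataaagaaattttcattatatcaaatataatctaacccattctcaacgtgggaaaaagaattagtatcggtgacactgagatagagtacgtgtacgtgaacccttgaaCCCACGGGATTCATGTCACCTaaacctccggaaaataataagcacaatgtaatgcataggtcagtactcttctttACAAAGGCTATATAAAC
TGG1: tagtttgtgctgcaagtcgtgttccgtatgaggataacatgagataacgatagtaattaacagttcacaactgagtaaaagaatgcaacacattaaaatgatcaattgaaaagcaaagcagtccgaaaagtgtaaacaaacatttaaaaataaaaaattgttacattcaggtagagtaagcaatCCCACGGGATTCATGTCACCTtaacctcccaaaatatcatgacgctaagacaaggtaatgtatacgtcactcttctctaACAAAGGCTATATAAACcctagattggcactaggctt
The windows share a stretch of 21 bases, which begins 92 bases before the start of TGG2 and 116 bases before that of TGG1. A second stretch of 17 bases, ending in a TATA-like run, begins 17 bases before TGG2 and 37 bases before TGG1. Neither window holds the G-box CACGTG, the PIF-bound E-box CACATG or the MYB core ACCNANC on either strand.

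TGG1 and TGG2 are made in myrosin cells beside the veins and, for TGG1, in guard cells. FAMA, the basic helix-loop-helix factor that specifies both cell types, had 8.94, 9.88 and 11.20 RPKM in csu6-2, against 9.94, 11.80 and 11.16 RPKM in Col-0, and did not pass (log2 change -0.12, adjusted p = 0.468). Of 8 guard cell markers including FAMA, all 8 were tested and 0 were called in either direction, beside 12.9% of all tested genes. FAMA alone of these also marks myrosin cells. SCAP1, KAT2 and GORK were lower without overlap between the groups (log2 changes -0.38, -0.18 and -0.14), and SLAC1 was higher without overlap (0.30). Groups of 32.0% of all tested genes did not overlap. SCAP1 passed without csu6-2 replicate 1 (adjusted p = 0.0427). The summed level of the 8 markers was 31.6 to 36.0 RPKM in csu6-2 libraries and 34.4 to 38.9 RPKM in Col-0 libraries, ranges that overlap, and none was at 0. The part of cell number in the myrosinase change was not tested.

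**Figure D2:**
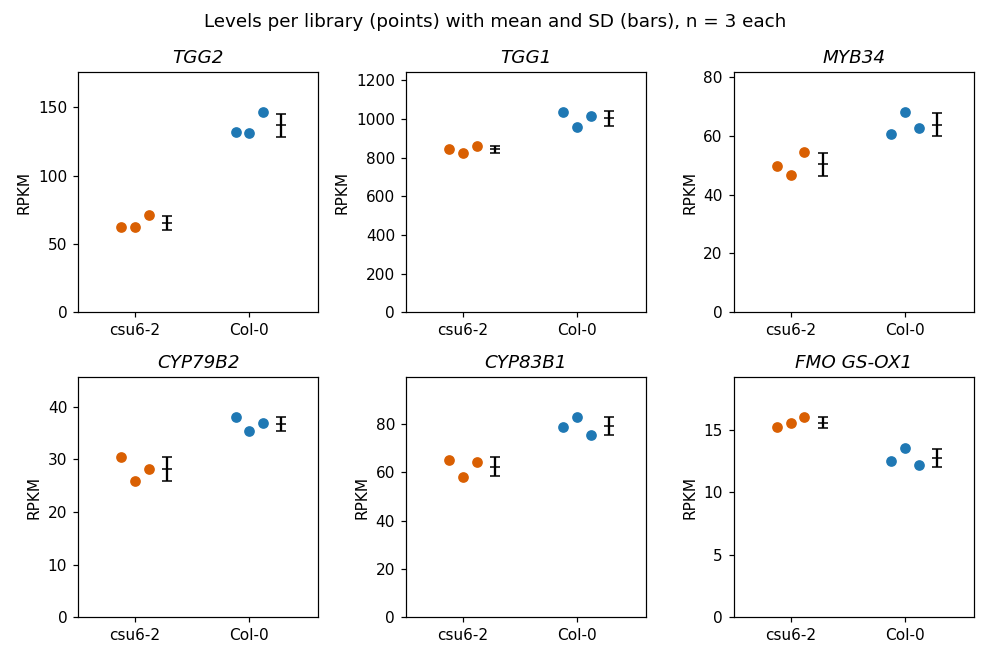
RPKM of the 6 called members in each library (points) with mean and SD (bars), csu6-2 on the left and Col-0 on the right of each panel; each y axis starts at 0. The groups are apart in every panel, most in TGG2 (65.4 against 137 RPKM) and least, in proportion, in TGG1 (843 against 1002.5 RPKM).

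Among the regulators, MYB34 (AT5G60890), an activator of the indolic genes, was lower and the other 4 tested MYB genes did not pass. MYB34 had 49.79, 46.81 and 54.61 RPKM in csu6-2, against 60.69, 68.18 and 62.60 RPKM in Col-0. All mutant values lay below all wild-type values. The log2 change was -0.34 (SE 0.08, 95% interval -0.51 to -0.16, adjusted p = 0.0145), and the call was lost without csu6-2 replicate 2 (adjusted p = 0.0747) or Col-0 replicate 2 (adjusted p = 0.0687). It held narrowly with median-of-ratios scaling (log2 change -0.26, adjusted p = 0.0497). MYB51, also an activator of indolic synthesis, was far less abundant, with 2.49, 2.55 and 2.73 RPKM in csu6-2 and 2.5, 2.42 and 1.92 RPKM in Col-0 (log2 change 0.13, SE 0.12, adjusted p = 0.517). MYB122 was below the filter, at 0.68, 0.71 and 0.87 RPKM in csu6-2 and 0.50, 0.45 and 0.66 RPKM in Col-0. Of the indolic activators, MYB34 was thus the most abundant in both genotypes and the one that was lower.

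No aliphatic activator passed. MYB28 had 44.92, 37.36 and 43.68 RPKM in csu6-2, against 40.18, 49.22 and 39.71 RPKM in Col-0 (log2 change -0.03, SE 0.10, 95% interval -0.24 to 0.18, adjusted p = 0.868). MYB29, its close homolog, averaged 27.1 ± 1.8 RPKM in csu6-2 and 26.0 ± 2.25 RPKM in Col-0 (log2 change 0.06, SE 0.08, adjusted p = 0.714). MYB76, which lies 1442 bases from MYB29, was scarce at 3.37 ± 0.175 RPKM in csu6-2 and 3.44 ± 0.246 RPKM in Col-0 (log2 change -0.02, SE 0.11, adjusted p = 0.921). The groups overlapped for all 3. MYB34 over MYB28 within a library, also chosen after its values were seen, was 1.11, 1.25 and 1.25 in csu6-2 and 1.51, 1.39 and 1.58 in Col-0, without overlap (log2 difference -0.31, exact two-sided permutation p = 0.1, the smallest possible, adjusted p = 0.1).

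Of the early indolic enzymes, CYP79B2 and CYP83B1 were lower and CYP79B3 did not pass. CYP79B2 (AT4G39950), which converts tryptophan to indole-3-acetaldoxime, a compound that also feeds auxin and camalexin synthesis, had 30.35, 25.80 and 28.19 RPKM in csu6-2, against 37.99, 35.36 and 36.86 RPKM in Col-0. The log2 change was -0.38 (SE 0.08, 95% interval -0.55 to -0.21, adjusted p = 0.0079), and the call held with any library left out (highest adjusted p 0.0419) and with median-of-ratios scaling (adjusted p = 0.0208). CYP79B3, which catalyses the same reaction, had 47.38, 38.39 and 43.96 RPKM in csu6-2 and 59.01, 48.44 and 46.47 RPKM in Col-0. Its groups overlapped and it did not pass (log2 change -0.24, 95% interval -0.46 to -0.02, adjusted p = 0.147). CYP83B1 (AT4G31500), which takes the aldoxime into glucosinolates, had 65.17, 57.85 and 64.03 RPKM in csu6-2, against 78.73, 82.76 and 75.56 RPKM in Col-0, again with no overlap. Its log2 change was -0.34 (SE 0.07, 95% interval -0.50 to -0.18, adjusted p = 0.0101), and the call was lost without csu6-2 replicate 2 (adjusted p = 0.0536) or Col-0 replicate 2 (adjusted p = 0.05002).

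Further along the indolic branch no member passed. The glutathione transferase genes GSTF9 and GSTF10, placed in this branch by co-expression, were the first and the fourth most abundant members in Col-0. GSTF9 averaged 1091.5 ± 19.4 RPKM in csu6-2 and 1120.4 ± 34.5 RPKM in Col-0 (log2 change -0.04, adjusted p = 0.786). GSTF10, which lies 897 bases from it, averaged 366 ± 18.5 RPKM in csu6-2 and 424 ± 27.6 RPKM in Col-0 (log2 change -0.21, adjusted p = 0.0904). SOT16, the sulfotransferase that prefers indolic substrates, averaged 51.4 ± 1.63 RPKM in csu6-2 and 55.1 ± 4.42 RPKM in Col-0 (log2 change -0.10, adjusted p = 0.458). CYP81F2, which hydroxylates the indole ring, was near the filter at 1.15, 0.76 and 0.61 RPKM in csu6-2 and 1.00, 0.97 and 1.2 RPKM in Col-0.

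The windows of 300 bases before the annotated starts of the 3 called indolic genes are given because these genes were lower together. They are on the strand of the gene, from chr5:24493991-24494290 (plus strand) for MYB34, chr4:18524742-18525041 (plus strand) for CYP79B2 and chr4:15275405-15275704 (minus strand) for CYP83B1 in TAIR10.1. Capitals mark a match to the MYB core ACCNANC, on either strand.
MYB34: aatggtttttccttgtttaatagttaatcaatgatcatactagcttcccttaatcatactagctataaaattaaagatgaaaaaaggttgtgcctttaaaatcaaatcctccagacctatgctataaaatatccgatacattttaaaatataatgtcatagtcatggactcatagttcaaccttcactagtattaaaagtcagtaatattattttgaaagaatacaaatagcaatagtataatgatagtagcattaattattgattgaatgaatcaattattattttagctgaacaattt
CYP79B2: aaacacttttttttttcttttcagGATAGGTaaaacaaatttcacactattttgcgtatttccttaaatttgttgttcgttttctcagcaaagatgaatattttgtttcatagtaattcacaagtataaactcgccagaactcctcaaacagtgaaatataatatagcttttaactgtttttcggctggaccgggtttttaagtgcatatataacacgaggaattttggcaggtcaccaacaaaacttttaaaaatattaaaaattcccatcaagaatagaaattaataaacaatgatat
CYP83B1: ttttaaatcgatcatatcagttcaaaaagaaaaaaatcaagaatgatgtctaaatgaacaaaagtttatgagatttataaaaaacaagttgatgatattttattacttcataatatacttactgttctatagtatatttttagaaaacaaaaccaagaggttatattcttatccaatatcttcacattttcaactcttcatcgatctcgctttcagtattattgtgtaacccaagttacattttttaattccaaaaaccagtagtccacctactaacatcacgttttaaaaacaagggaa
The single match lies 276 bases before the start of CYP79B2. The G-box was present in 3 of 42 windows of the members analysed (7.14%) and in 7.18% of 26711 windows of protein-coding genes, the PIF-bound E-box in 3 (7.14%) and 13.1%, and the MYB core in 16 (38.1%) and 32.0%. Of the 10 indolic windows, 0 held the G-box, 2 the PIF-bound E-box (those of MYB51 and GSTF10) and 4 the MYB core. None of the 3 motifs contains another, although neighbouring matches can share bases. A match is a run of letters, not a shown binding site.

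The aliphatic branch held a single call. Of the 24 tested members, 1 was higher and 0 lower, beside 3.55% higher and 9.38% lower over all tested genes, and the 23 that were not called had log2 changes of -0.16 to 0.25. In the chain elongation steps, BCAT4, the aminotransferase that starts elongation, had 86.81, 83.46 and 98.25 RPKM in csu6-2, against 78.32, 88.41 and 85.99 RPKM in Col-0 (log2 change 0.08, adjusted p = 0.54). MAM1, the synthase that condenses each new carbon unit and helps set chain length, averaged 156 ± 7.5 RPKM in csu6-2 and 156 ± 7.17 RPKM in Col-0 (95% interval of the log2 change -0.16 to 0.15, adjusted p = 0.992). MAM3, its neighbour on chromosome 5, had a log2 change of -0.04 (adjusted p = 0.769). The plastid keto acid carrier BAT5, the aminotransferase BCAT3 and the isomerase subunits IIL1 and IPMI1 did not pass, with adjusted p from 0.318 to 0.925.

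IPMI2 and IMD1 stood slightly apart without passing. IPMI2, an isomerase small subunit, had 85.45, 88.80 and 84.70 RPKM in csu6-2, against 72.79, 80.01 and 72.61 RPKM in Col-0. IMD1, the dehydrogenase that completes each elongation round, had 190.01, 201.95 and 217.31 RPKM in csu6-2, against 159.37, 183.09 and 176.00 RPKM in Col-0. Neither overlapped between the genotypes, and the log2 changes were 0.20 and 0.23 (adjusted p = 0.0818 and 0.0704). With median-of-ratios scaling both passed (adjusted p = 0.0307 and 0.0462).

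In the aliphatic core, the methionine-derived substrates are taken up by CYP79F1 and CYP79F2, which lie 1183 bases apart. CYP79F1 had 74.32, 65.30 and 69.82 RPKM in csu6-2, against 58.87, 69.81 and 58.83 RPKM in Col-0, and the groups overlapped (log2 change 0.16, 95% interval -0.02 to 0.34, adjusted p = 0.241). CYP79F2 averaged 13.8 ± 1.07 RPKM in csu6-2 and 13.0 ± 1.55 RPKM in Col-0. The pair shared 54 exonic windows of 50 bases (1.76% of those of CYP79F1 and 2.89% of those of CYP79F2). CYP83A1, the next enzyme, averaged 115 ± 4.95 RPKM in csu6-2 and 114 ± 4.27 RPKM in Col-0 (95% interval of the log2 change -0.13 to 0.17). The glutathione transferase gene GSTU20, the most abundant aliphatic member, had 625.89, 750.40 and 705.05 RPKM in csu6-2 and 573.68, 646.49 and 595.27 RPKM in Col-0 (log2 change 0.19, adjusted p = 0.158). GSTF11, the glucosyltransferase gene UGT74C1 and the sulfotransferase genes SOT17 and SOT18 had log2 changes of -0.06, -0.02, -0.05 and -0.06. CYP79B2 over CYP79F1, the entry points of the branches, was 0.408, 0.395 and 0.404 in csu6-2 and 0.645, 0.507 and 0.627 in Col-0, without overlap (log2 difference -0.55, exact two-sided permutation p = 0.1, the smallest possible, adjusted p = 0.1). This ratio too was chosen after its values were seen.

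The called gene is among the flavin monooxygenases that oxidise the sulfur of the aliphatic side chain. FMO GS-OX1 (AT1G65860, chr1:24498954-24502776) had 15.20, 15.53 and 16.02 RPKM in csu6-2, against 12.54, 13.58 and 12.17 RPKM in Col-0. The lowest csu6-2 value exceeded the highest Col-0 value by less than 2 RPKM. The log2 change was 0.27 (SE 0.08, 95% interval 0.09 to 0.45, adjusted p = 0.0451). The call held with median-of-ratios scaling (log2 change 0.34, adjusted p = 0.0136) and was lost without any one library, with adjusted p of 0.0608, 0.0996 and 0.147 without csu6-2 replicates 1, 2 and 3 and 0.11, 0.0636 and 0.126 without Col-0 replicates 1, 2 and 3. FMO GS-OX5 had 20.14, 19.77 and 19.04 RPKM in csu6-2, against 15.24, 16.77 and 16.99 RPKM in Col-0, and missed the threshold (log2 change 0.25, adjusted p = 0.0518; adjusted p = 0.0184 with median-of-ratios scaling). FMO GS-OX2 and FMO GS-OX3 had log2 changes of -0.16 and -0.04. AOP3, a side-chain gene known to be little used in leaves of Col-0, was listed at 0 in all 6 libraries.

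The window before FMO GS-OX1 (chr1:24502777-24503076, minus strand, TAIR10.1) is given because this gene was the 1 member called higher and the window holds a PIF-bound E-box. Its capitals mark, in order, a match to the MYB core on the other strand, 71 bases before the start, then the PIF-bound E-box CACATG, 43 bases before the start. That E-box was in 7.14% of the windows of members analysed and in 13.1% of those of protein-coding genes. A part of it in the change was not tested.
FMO GS-OX1: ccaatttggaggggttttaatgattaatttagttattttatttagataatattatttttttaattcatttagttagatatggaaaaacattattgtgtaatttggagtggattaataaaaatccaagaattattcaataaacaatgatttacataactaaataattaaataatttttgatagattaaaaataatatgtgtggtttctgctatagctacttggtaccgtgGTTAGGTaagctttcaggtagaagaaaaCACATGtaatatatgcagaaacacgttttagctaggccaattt

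Side by side, the branches differed in their calls and medians, a difference that carries no test. Of 9 tested indolic members 3 were lower and 0 higher, beside 9.38% lower over all tested genes, with a median log2 change of -0.21 and 8 of 9 changes negative. The aliphatic branch had a median of 0.01, with 12 of 24 changes negative. All tested genes had a median of -0.07, with 12318 of 18885 changes negative. The 7 shared members had a median of -0.20, near the indolic one, with 6 of 7 changes negative and 2 members lower. The indolic count was 1, CYP79B2, without csu6-2 replicate 2 (5.16% of all genes lower) and without Col-0 replicate 2 (4.59% lower). Median-of-ratios scaling left 3 indolic genes lower and gave 4 aliphatic genes higher, with medians of -0.15 and 0.09 against 0.00 over all tested genes, of which it called 11.5% (5.65% higher, 5.88% lower). Under that scaling 6 of 8 tested indolic changes were negative, 2 of 24 aliphatic changes and 9417 of 18869 changes of all tested genes.

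In each library, the median over tested indolic members of log2(RPKM + 1) minus the Col-0 mean was -0.10, -0.22 and -0.21 in csu6-2, against 0.00, 0.06 and -0.03 in Col-0. The same for aliphatic members was 0.03, -0.03 and 0.03 in csu6-2, against -0.07, 0.08 and -0.03 in Col-0. The indolic values did not overlap between the genotypes and the aliphatic values did. The indolic median minus the aliphatic median was -0.13, -0.20 and -0.24 in csu6-2 and 0.06, -0.02 and 0.00 in Col-0. These are descriptions of chosen genes and carry no test.

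**Figure D3:**
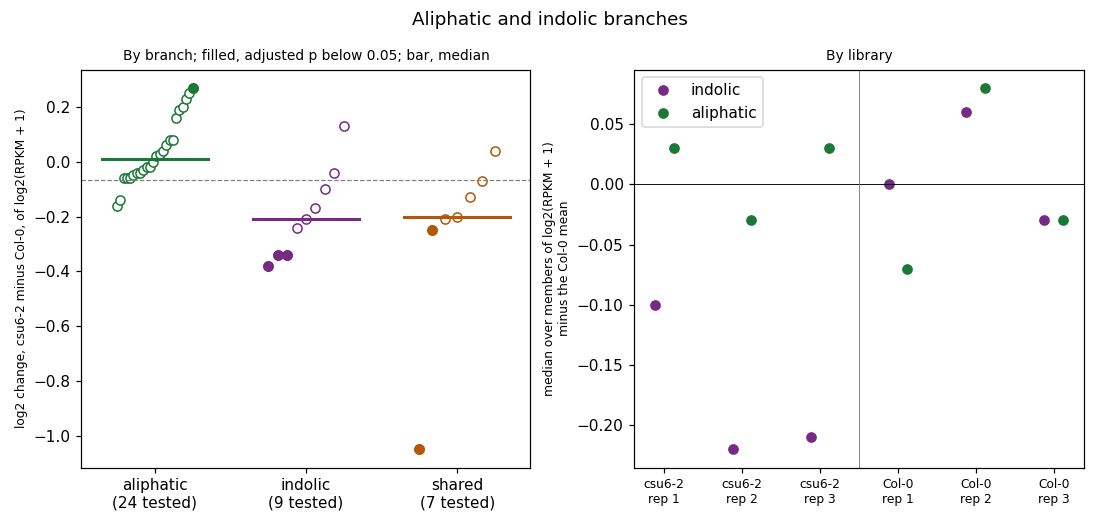
Left, log2 change (y axis, csu6-2 minus Col-0) of each tested member by branch, with the branch median as a bar and the median of all tested genes as a dashed line; right, the branch median in each library relative to the Col-0 mean. The indolic median in csu6-2 libraries is -0.22 to -0.10, below the aliphatic median of -0.03 to 0.03 in the same libraries.

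Levels were also summed over each branch. The 10 indolic members summed to 1691.8, 1667.3 and 1732.7 RPKM in csu6-2, averaging 1697.2 ± 33.0 RPKM, against a mean of 1834.3 ± 43.0 RPKM in Col-0 (SD, n = 3 each), without overlap. GSTF9 and GSTF10 make up most of that sum, and without them it averaged 239.7 ± 15.0 RPKM in csu6-2 and 289.8 ± 12.1 RPKM in Col-0. The 25 aliphatic members with a value summed to a mean of 2148.8 ± 55.6 RPKM in csu6-2 and 2011 ± 109 RPKM in Col-0, and these groups overlapped. The 7 shared members, with TGG1 the most abundant, summed to 1306.1 ± 30.9 RPKM in csu6-2 and 1571.3 ± 39.3 RPKM in Col-0. Those groups did not overlap, with or without median-of-ratios scaling. TGG1 (843 RPKM in csu6-2 and 1002.5 RPKM in Col-0) and TGG2 (65.4 and 137 RPKM) make up most of this shared sum. No sum without TGG1 and TGG2 was made, so it does not speak for the other shared members. With median-of-ratios scaling the full indolic sum overlapped between the genotypes (1743.4 ± 58.3 RPKM in csu6-2 and 1786.8 ± 71.9 RPKM in Col-0) and the aliphatic sum did not (2208.4 ± 121 RPKM in csu6-2 and 1957.9 ± 91.6 RPKM in Col-0). Under the same scaling the indolic sum without GSTF9 and GSTF10 was 248, 236 and 254 RPKM in csu6-2, against 286, 284 and 276 RPKM in Col-0, again without overlap.

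The enzymes common to both branches did not pass. GGP1, which trims the glutathione conjugate, averaged 236 ± 9.44 RPKM in csu6-2 and 258 ± 17.3 RPKM in Col-0. SUR1, the carbon-sulfur lyase whose loss causes auxin excess, averaged 62.7 ± 2.59 RPKM in csu6-2 and 61.2 ± 4.58 RPKM in Col-0. UGT74B1, the glucosyltransferase of the core, had 58.67, 53.03 and 51.60 RPKM in csu6-2, against 60.75, 67.50 and 61.60 RPKM in Col-0, with no overlap (log2 change -0.21, adjusted p = 0.0854). Of the transporters that load glucosinolates into the phloem, GTR1 had 21.04, 18.43 and 19.40 RPKM in csu6-2 and 24.30, 21.26 and 22.61 RPKM in Col-0 (log2 change -0.20, adjusted p = 0.132), and GTR2 had a log2 change of -0.07 (adjusted p = 0.638).

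Members of different branches can be neighbours. MYB51 lies 7144 bases from SOT17, SOT18 5215 bases from MYB122 and 151 bases from SOT16, so indolic and aliphatic genes stand close together on chromosome 1, and no tested gene among these 5 passed. Of the 43 members, 9 overlap another annotated gene in TAIR10.1 and could hold reads of it, since the strand setting of the counting is not given, but 0 of the 6 called members do.

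Genes of the pathway outside the 43 were read from lists of known function, drawn up with earlier results of these data known. Of 51 such genes, 46 were tested, 1 was higher and 11 lower (26.1% called, beside 12.9% of all tested genes), with a median log2 change of -0.12. With median-of-ratios scaling 1 was higher and 6 lower (15.2% called, beside 11.5% of all tested genes). Among 10 genes of side chain and indole ring modification, 8 were tested and 3 were lower, beside 9.38% lower over all tested genes. With median-of-ratios scaling 2 were lower, beside 5.88% of all tested genes. The genes called lower act on indolic glucosinolates, as do most of the tested genes of this list, so the list does not contrast the branches. IGMT5, a methyltransferase that forms 1-methoxyindole glucosinolate, had 50.13, 41.88 and 44.94 RPKM in csu6-2, against 72.20, 80.17 and 66.06 RPKM in Col-0 (log2 change -0.66, SE 0.09, adjusted p = 0.000491). CYP81F4, the hydroxylase of the same position, had 3.29, 2.92 and 3.41 RPKM in csu6-2, against 5.41, 5.47 and 4.43 RPKM in Col-0 (log2 change -0.53, adjusted p = 0.00866). Neither overlapped, and both calls held with any library left out and with median-of-ratios scaling. IGMT1, one of a cluster of near-identical copies and so uncertain, had a log2 change of -0.59 (adjusted p = 0.0436), a call lost with median-of-ratios scaling (adjusted p = 0.0588), without csu6-2 replicate 2 or 3 (adjusted p = 0.143 and 0.121) or without Col-0 replicate 1 or 2 (adjusted p = 0.0695 and 0.101).

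The breakdown list of 15 genes had 13 tested, 1 higher and 2 lower (23.1% called, beside 12.9% of all tested genes). ESM1, a protein that steers hydrolysis of aliphatic glucosinolates away from nitriles, had 235.33, 265.34 and 238.56 RPKM in csu6-2, against 111.31, 145.05 and 144.09 RPKM in Col-0 (log2 change 0.89, SE 0.10, adjusted p = 0.000231). NSP5, a nitrile-specifier protein, had 58.92, 47.32 and 52.75 RPKM in csu6-2, against 89.56, 83.59 and 76.46 RPKM in Col-0 (log2 change -0.64, SE 0.09, adjusted p = 0.000611). Both held with any library left out and with median-of-ratios scaling. PYK10, a root and hypocotyl beta-glucosidase of ER bodies, averaged 1034.3 ± 67.6 RPKM in csu6-2 and 1249.9 ± 42.2 RPKM in Col-0 (log2 change -0.27, adjusted p = 0.0361); it was no longer called under median-of-ratios scaling (adjusted p = 0.161), nor with a library left out other than csu6-2 replicate 3 (adjusted p from 0.0591 to 0.145). PEN2, the atypical myrosinase of indolic glucosinolates, had a log2 change of 0.03 (adjusted p = 0.836).

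Of 8 further regulators 5 were lower and 0 higher, beside 9.38% lower over all tested genes. The count was 3 with median-of-ratios scaling, 2 without csu6-2 replicate 2 or 3, 3 without Col-0 replicate 1 or 3, and 1 without Col-0 replicate 2. Of all tested genes, 5.88% were lower with that scaling, 5.16% without csu6-2 replicate 2 and 4.59% without Col-0 replicate 2. The count was 6 of 8 without csu6-2 replicate 1 (1790 of 18727 tested genes lower) and 6 of 7 at a minimum of 5 RPKM (1657 of 13980). MYC3 and MYC4, helix-loop-helix partners of the MYB activators, averaged 27.3 ± 1.05 and 10.5 ± 0.692 RPKM in csu6-2, against 32.9 ± 0.707 and 13.6 ± 1.65 RPKM in Col-0 (log2 changes -0.26 and -0.34, adjusted p = 0.0306 and 0.0357). MYC2 had 15.99, 13.41 and 15.02 RPKM in csu6-2, against 17.91, 18.72 and 17.48 RPKM in Col-0, and missed the threshold (log2 change -0.27, adjusted p = 0.0541). With median-of-ratios scaling none of the MYC genes passed (adjusted p = 0.0967, 0.0765 and 0.0592 for MYC2, MYC3 and MYC4). MYC3 passed only in the fit without csu6-2 replicate 1 (adjusted p from 0.0548 to 0.108 in the others), and MYC4 did not pass without csu6-2 replicate 2 or 3 (adjusted p = 0.126 and 0.0927) or Col-0 replicate 2 (adjusted p = 0.164). SDI2, a repressor of aliphatic synthesis induced by sulfur deficiency, had 21.34, 19.99 and 24.01 RPKM in csu6-2, against 31.70, 35.16 and 28.89 RPKM in Col-0 (log2 change -0.53, adjusted p = 0.00265). Its relative SDI1 averaged 10.3 ± 2.29 RPKM in csu6-2 and 16.9 ± 2.29 RPKM in Col-0 (log2 change -0.68, adjusted p = 0.0214), a call lost without Col-0 replicate 1 or 2 (adjusted p = 0.0539 and 0.0919). OBP2, a DOF factor that activates glucosinolate genes, averaged 12.1 ± 1.67 RPKM in csu6-2 and 16.1 ± 0.731 RPKM in Col-0 (log2 change -0.39, adjusted p = 0.0204). It did not pass without csu6-2 replicate 2 or 3 (adjusted p = 0.0721 and 0.0899) or Col-0 replicate 2 or 3 (adjusted p = 0.0584 and 0.0594).

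**Figure D4:**
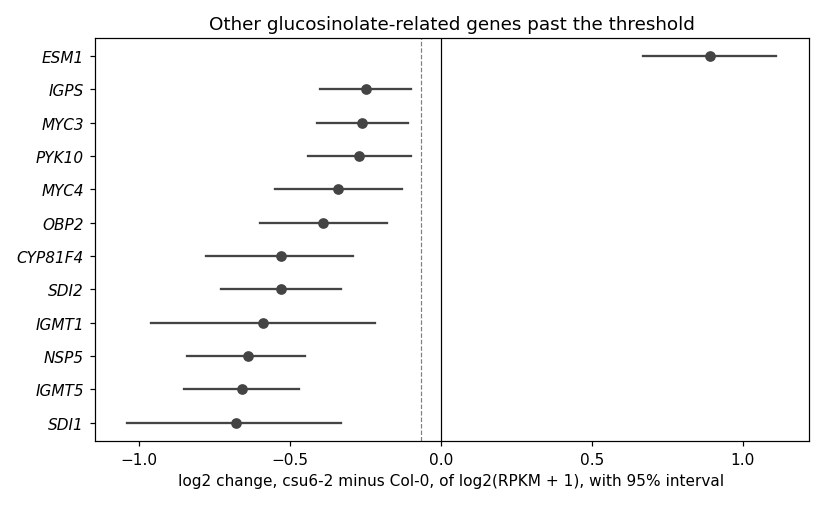
Log2 change (x axis, csu6-2 minus Col-0, with 95% interval) of the 12 called pathway genes outside the 43; the dashed line is the median of all tested genes. ESM1 at 0.89 is the one to the right of 0, and the other 11 lie between -0.68 and -0.25.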

How the data were processed

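RNA sequencing of 6 whole-seedling libraries was analysed, 3 of csu6-2 and 3 of Col-0, grouped by their titles. The authors deposited per library a value for 32678 genes, with 2 decimals and no header, taken here as RPKM. That unit is inferred from the values, which were not whole and had unequal totals, and values per fragment (FPKM) cannot be told apart from it. HISAT2, edgeR 3.0.8 and TAIR10 are named, with no role, in the submitters' processing notes. The gene counter, gene lengths, strand setting and filters are not stated in the sources used here. Depth in reads is unknown, so no counting interval is given, and RPKM moves with the few most abundant transcripts.

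Genes with at least 1 RPKM in 3 or more libraries (18885) were compared as log2(RPKM + 1) with limma 3.58.1 in R 4.3.3 (statmod 1.5.0; eBayes with trend and robust), two-sided, with Benjamini-Hochberg adjustment over all of them and a threshold of 0.05. The pseudocount understates changes of scarce genes. Tested on simulated data, the procedure recovered the larger changes in the right direction, but its share of false calls ran above the nominal threshold, which bears on calls close to it such as TGG1 and FMO GS-OX1. Smaller changes, about the size of those of every called member but TGG2, were also simulated, and their recovery is not given here. A gene that was not called may therefore still have changed. Identifiers, positions and sequence came from RefSeq's TAIR10.1. The members and lists were chosen with earlier results of these data known, and every member may be named. Outside them, called genes are named, up to 3 per list with values, and MYC2, MYC3 and MYC4. FAMA, SCAP1, KAT2, GORK, SLAC1, PEN2, CYP71A13, CYP71A12, PAD3, NPF2.9, ASB1, PAT1, TSA1 and the 3 within-library ratios were chosen after their values were seen. Alternatives were pseudocount 0.1, no filter, a minimum of 5 RPKM, median-of-ratios and TPM scaling, non-robust eBayes, a replicate block and leaving out each library.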

Additional observations from a re-analysis of the deposited data

How the results depend on the processing

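Among the 43 members, 6 were called, and 2 to 4 with a library left out (2 without csu6-2 replicate 2 or Col-0 replicate 2). The count was 8 of 39 with median-of-ratios scaling, 7 of 37 at a minimum of 5 RPKM, 6 with pseudocount 0.1, 5 with TPM scaling, 5 with non-robust eBayes and 4 with no filter. Indolic calls numbered 3, and 1 to 3 with a library left out. The aliphatic count was 1, and 0 with any library left out, 0 with no filter, 0 with TPM scaling, 2 at a minimum of 5 RPKM and 4 with median-of-ratios scaling. All tested genes gave 2442 calls, and 1279 to 2324 with a library left out, while the other pathway genes gave 12, 7 with median-of-ratios scaling and 5 to 11 with a library left out. Scaling turned the split of all calls (671 higher and 1771 lower) to 1066 higher and 1110 lower. The summed aliphatic difference (csu6-2 minus Col-0) was 138 RPKM, 250.5 with median-of-ratios scaling and 50.6 without glutathione transferases; the indolic one was -137, -43.4 and -50.1 RPKM. TGG1 also missed the threshold with no filter (adjusted p = 0.0503) and with non-robust eBayes (0.054), as FMO GS-OX1 did with no filter (0.0605) and with TPM scaling (0.0603). TGG2 and CYP79B2 passed under all 13 alternatives run. The causes were not tested. With the replicate number as a block, 9 of 40 members passed (22.5%, beside 15.7% of all tested genes), 5 of them indolic and 2 aliphatic. Among members this added CYP79B3, GSTF10 and IMD1, while the green shoot markers called fell from 3 to 1 of 6. The deviations of same-numbered libraries correlated at 0.204, 0.0512 and 0.221, and those of differently numbered libraries at -0.304 to 0.121. These values do not settle whether the numbers pair the samples, and the main fit used no block. Depth in reads is unknown and limits what can be said of genes near 1 RPKM, such as CYP81F2 and MYB122.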

Other observations

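Genes that supply the pathway were read from further lists, also drawn up with earlier results of these data known. Of 7 tested genes of tryptophan synthesis 1 was called (14.3%, beside 12.9% of all tested genes): IGPS was lower (39.2 ± 1.52 RPKM in csu6-2 and 46.8 ± 0.903 RPKM in Col-0; limma log2 change -0.25, adjusted p = 0.0327), a call lost with any library left out (adjusted p from 0.0566 to 0.101) and with median-of-ratios scaling (adjusted p = 0.157). ASB1 averaged 17.2 ± 0.0981 RPKM in csu6-2 and 20.5 ± 1.75 RPKM in Col-0, PAT1 47.0 ± 0.137 RPKM in csu6-2 and 53.6 ± 3.55 RPKM in Col-0, and TSA1 38.5 ± 1.09 RPKM in csu6-2 and 44.6 ± 1.88 RPKM in Col-0; these 3 did not overlap between the genotypes and did not pass. All 4 genes of sulfate activation and glutathione synthesis were tested and 0 were called, with log2 changes of -0.10 to 0.00. Of 3 camalexin genes, which draw on the same aldoxime as the indolic branch, 2 were tested and 0 were called, beside 12.9% of all tested genes. CYP71A13 had 2.78, 1.28 and 1.49 RPKM in csu6-2 and 1.16, 0.96 and 0.53 RPKM in Col-0 and did not pass (log2 change 0.58, adjusted p = 0.0793). It passed with the replicate number as a block (adjusted p = 0.0239). PAD3 did not pass (log2 change 0.24, adjusted p = 0.239). CYP71A12, below the filter, averaged 0.237 RPKM in csu6-2 and 0.387 RPKM in Col-0. The 3 leucine-synthesis relatives of the elongation genes were tested and 0 were called (log2 changes -0.20 to -0.17), and NPF2.9, a further transporter, had a log2 change of 0.06.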
